A study of Homo sapiens with 6 samples.

Results

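IGFBP-3 was knocked down by siRNA in SAS-Fucci cells, and the RNA of the cells at 72 h after transfection was compared with RNA from cells transfected with a non-targeted siRNA as control (Cont). SAS is an established human tongue squamous cell carcinoma line, and the Fucci reporter it carries colors nuclei by cell-cycle phase. The comparison used 4 of the 6 libraries of the study, with 2 at 72 h and 2 of Cont. The other 2 libraries came from cells at 48 h after IGFBP3 siRNA and are used only where the later time is set against the earlier one. All 6 libraries are of SAS-Fucci cells, a single line. The study's methods give the letters of 2 IGFBP3 siRNAs, a Stealth RNAi duplex and a Silencer Select siRNA. The study's figure legends name IGFBP3 siRNA #1 for the sequenced RNA. Which of the 2 siRNAs carries this number is not given in the sources used here. The labels give no time for Cont, and they do not tell whether the libraries within a group stem from separate cultures, so the p-values measure only the spread between libraries, which may be technical. Cells kept for the longer time received fresh medium on the way. The time in culture, the change of medium and the length of the knockdown cannot be told apart in these groups. Genes were included when they had a name and reached an FPKM of 1 in 2 or more of the 4 libraries, where FPKM is the number of fragments per kilobase of gene model, scaled to the size of the library. This left 10997 of the 59520 named gene models.

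IGFBP-3 is the most abundant carrier of insulin-like growth factors in serum. It keeps these ligands from their receptor, and it also acts on cells without them, from outside and from within the nucleus. In squamous carcinomas the growth factors of this system and of the EGFR family feed the ERK and the PI3K-AKT cascades, which drive entry into the cell cycle and cell migration. An siRNA is loaded as a single strand into an Argonaute complex, which cuts the fully matched mRNA. The same strand can lower other mRNAs through its seed, the bases near its 5′ end, where these pair with a 3′ UTR.

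The targets of both siRNAs and their seeds are shown first, because the letters of one of them recur in the results. The Stealth letters matched IGFBP3 at chr7:45916563-45916587 and the Silencer Select letters at chr7:45917320-45917338, on the minus strand of GRCh38, in the coding sequence of exons 4 and 3 of the 6 exons of an annotated transcript. Capitals mark the bases opposite positions 2 to 8 of the antisense strand, counted from its 5′ end.
IGFBP3 target of the Stealth siRNA: tcccaactgtgacaagaAGGGATTt
IGFBP3 target of the Silencer Select siRNA: cattcaaagatAATCATCa

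IGFBP3 stayed far below Cont at 72 h, although less so than at 48 h. It had 1.52 and 3.25 FPKM at 72 h, against 24.7 and 23.1 FPKM in Cont. The 48 h libraries had 0.261 and 0.258 FPKM. The 3 groups did not overlap, and the 2 libraries at 72 h differed from each other by more than those of either other group did in FPKM. The mean was 2.38 ± 1.23 FPKM at 72 h, against 23.9 ± 1.16 FPKM in Cont (SD, n = 2 each), or 10-fold lower at 72 h. On the log2(FPKM + 1) scale, which is used for every difference here and which understates changes of low genes, the difference was -2.93 (SE 0.22, limma, Benjamini-Hochberg adjusted p = 0.00194 over all tested genes). Without any 1 library the adjusted p was 0.017 at most. IGFBP3 was higher at 72 h than at 48 h by 1.38 (adjusted p = 0.0308), but this did not hold without 48 h replicate 1 or without 48 h replicate 2 (largest adjusted p 0.13).

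Of the 10997 genes, 414 were higher at 72 h (3.76%) and 1094 were lower (9.95%) than in Cont, at an adjusted p below 0.05. Higher genes made up 27.5% of the calls, and 46.1% (620 higher, 725 lower) when the libraries were given equal distributions by quantile normalization. The median difference of all tested genes was -0.05, and the called genes had medians of 0.47 among those higher and -0.49 among those lower. Only 38 of the higher and 73 of the lower genes passed a difference of 1 in size. The groups overlapped in none of the called genes, so groups that do not overlap add nothing to a call. Over all tested genes, both 72 h libraries lay above both Cont libraries in 21.2% and below both in 37.5%. Leaving out 1 of the 4 libraries left 104 to 147 higher and 327 to 452 lower genes, and 69 higher and 223 lower genes were called in all 4 of these fits. In the text, a call is said to be lost where it was missed without a library; otherwise it was kept without each of the 4. Some tested genes passed the filter on low values through 1 group only, and such a gene had to differ. They made up 39 of the higher genes, at 1 FPKM or more only at 72 h, and 96 of the lower genes, at 1 FPKM or more only in Cont. In the lists used below these were GRB10, LOXL4, PLAC8 and H2BC5 among the higher genes and STC1, SPRED3, KLF4, TNC, SPP1, WNT3A, ZMAT3, HSPB8, AKR1C3 and PPP2R2B among the lower ones, and they are included in the list counts and medians. Exact permutation of 2 against 2 libraries cannot go below p = 0.333, so single genes rest on the model across genes.

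**Figure D1:**
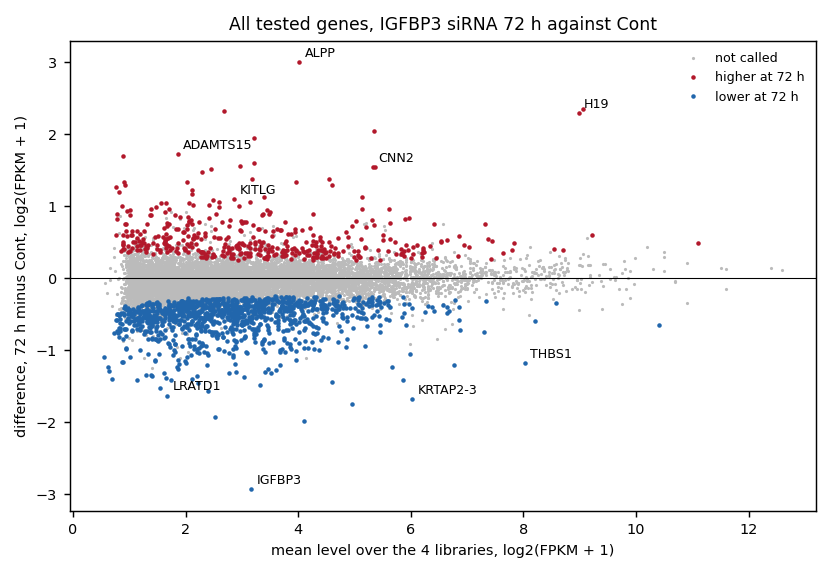
Difference between IGFBP3 siRNA 72 h and Cont (vertical axis, log2(FPKM + 1)) against the mean level over the 4 libraries (horizontal axis, log2(FPKM + 1)) for the 10997 tested genes. Red points are the 414 genes higher at 72 h, blue points the 1094 genes lower at 72 h and gray points genes not called; IGFBP3 lies lowest at -2.93 and ALPP highest at 3.0.

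The libraries held between 17430405 and 21579750 assigned reads, recovered from the whole-read steps of the FPKM values. A gene model of 2000 bases at 1 FPKM then held 34.9 to 43.2 reads. The 9 markers of squamous epithelium (such as KRT5, TP63 and CDH1) were each above 1 FPKM in at least 1 library and summed to 802 and 829 FPKM at 72 h, against 931 and 812 FPKM in Cont. Markers of other cell types were low, and 2 of the 10 fibroblast markers (COL1A1 and ACTA2, in Cont only) and no endothelial or leukocyte marker reached 1 FPKM. The 10 fibroblast markers summed to 2.16 and 2.24 FPKM at 72 h, against 3.41 and 3.31 FPKM in Cont, with DCN listed at 0. The 7 endothelial markers summed to at most 1.17 FPKM and the 8 leukocyte markers to at most 0.773 FPKM in any of the 4 libraries. Of the genes given below, SPHK1, ETV4, CCND1, CFL1, ITGB4, THBS1, PIK3CB, PPP2R1B, KRT18, CALML3, CCNE2, POLD3, GAPDH, CXCL16 and the HLA genes overlap other gene models, and without strand the reads of such neighbors may not be told apart.

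The letters opposite the seed of the Stealth antisense strand were more frequent among the genes that fell than among the others. The 7 letters AGGGATT were in the longest annotated 3′ UTR of 240 of 988 genes lower at 72 h (24.3%), of 32 of 376 genes higher (8.51%) and of 884 of 8236 genes not called (10.7%). Over all 9600 tested genes with such a UTR the share was 12%. The UTRs of the lower genes were longer, with a median of 1704 bases against 1374 bases for the higher genes and 1324 bases for those not called. Per 1000 bases of UTR there were 0.133 matches in the lower genes, 0.0521 in the higher genes and 0.0627 in the rest. The letters opposite the seed of the other Stealth strand, AGTTGGG, were in 13.8% of the lower, 11.7% of the higher and 12% of the uncalled genes. For the Silencer Select siRNA, counted after the data were seen, the letters AATCATC of the antisense strand were in 9.31% of the lower, 8.51% of the higher and 8.95% of the uncalled genes, and the letters TTTGAAT of the sense strand in 32.1%, 20.7% and 25.2% of them. Per 1000 bases TTTGAAT had 0.218 matches in the lower genes, 0.158 in the higher genes and 0.191 in the rest. The share of genes that were lower was 8.86% with no AGGGATT, 19.4% with 1 and 29.5% with 2 or more, against 9.95% of all tested genes. Among the lower genes called without each of the 4 libraries in turn, 68 of 204 held the letters (33.3%), against 12.7% for AGTTGGG. Of the genes lower by more than 1, they were in 9 of 56 (16.1%). Under the other settings the share among the lower genes lay between 24.2% and 31%. These are counts of letters, and a match is not a measured site. Which of the 2 siRNAs is the #1 of the figure legends is not given in the sources used here. The part of a seed in the differences was not tested.

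Stretches of 21 bases around the match are printed for 5 genes that fell, and are shown because they carry the letters. LRATD1, at chr2:14637875-14637895 on the plus strand, had the largest fall among the named genes with a match. LATS2 (chr13:20974556-20974576, minus strand), with 2 matches, is a kinase of the Hippo pathway. ACSL4 (chrX:109643075-109643095, minus strand) activates long-chain fatty acids. SPRED1 (chr15:38351935-38351955, plus strand) restrains RAS and ERK signaling. ARPC2 (chr2:218254004-218254024, plus strand) is a subunit of the Arp2/3 complex. The capitals are the letters shared with the Stealth target above.
LRATD1: taataatgttAGGGATTtcgt
LATS2: actaaattatAGGGATTaact
ACSL4: ctttgataacAGGGATTgatt
SPRED1: tccaactaaaAGGGATTaatt
ARPC2: caggttcttaAGGGATTctcc

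Besides IGFBP3, the largest falls spread over genes of different kinds. LRATD1, a protein of the LRAT domain family, had 0.818 and 0.832 FPKM at 72 h, against 4.71 and 4.56 FPKM in Cont (a difference of -1.63, SE 0.09, adjusted p = 0.00148). NTN4, a netrin of basement membranes, had 5.10 and 4.81 FPKM at 72 h, against 16.1 and 15.5 FPKM in Cont (-1.49, SE 0.08, adjusted p = 0.00148). TNC, which encodes the matrix protein tenascin-C, had 0.625 and 0.791 FPKM at 72 h, against 4.12 and 3.74 FPKM in Cont (-1.53, SE 0.10, adjusted p = 0.00159). LRATD1 and TNC were tested only through their level in Cont, so they had to differ. The groups did not overlap in these 3 genes, as the choice of the largest falls required. CXCL1, a chemokine that draws neutrophils, had 2.42 and 1.74 FPKM at 72 h, against 8.11 and 8 FPKM in Cont (-1.57, SE 0.14, adjusted p = 0.00264). PPP1R14C, an inhibitor of protein phosphatase 1, had 1.97 and 1.67 FPKM at 72 h, against 6.30 and 7.24 FPKM in Cont (-1.46, SE 0.10, adjusted p = 0.00161). DNAJC6, or auxilin, which uncoats clathrin vesicles, had 1.77 and 1.52 FPKM at 72 h, against 6.67 and 5.40 FPKM in Cont (-1.40, SE 0.11, adjusted p = 0.00195). Again the groups did not overlap. KRTAP2-3, a keratin-associated protein of hair, had 40.1 and 30.9 FPKM at 72 h, against 111.9 and 118 FPKM in Cont (-1.68, SE 0.20, adjusted p = 0.00589). PTGES3, the p23 cochaperone of HSP90, had 31.6 and 38.1 FPKM at 72 h, against 91.5 and 97.4 FPKM in Cont (-1.42, SE 0.11, adjusted p = 0.00194), and its processed pseudogene PTGES3P1 had 12 and 15.5 FPKM at 72 h, against 39.9 and 37.8 FPKM in Cont. Reads of this pair could have been shared by the authors' counting, so they are 1 observation.

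Other large falls lost their call when a library was left out. IGFL1, a secreted protein related to the insulin-like growth factors, had 7.92 and 7.28 FPKM at 72 h, against 53.2 and 20.4 FPKM in Cont (-1.99, adjusted p = 0.0195), and its call was lost without 72 h replicate 1 or 72 h replicate 2 (largest adjusted p 0.083). S100A9, a calcium-binding protein of inflamed epithelium, had 16.7 and 15.3 FPKM at 72 h, against 60.8 and 51.6 FPKM in Cont (-1.75, adjusted p = 0.0119), lost without Cont replicate 1, 72 h replicate 1 or 72 h replicate 2 (largest adjusted p 0.0645). Without 1 library the difference lay between -2.66 and -1.32 in IGFL1, at -1.32 without Cont replicate 1, and between -1.87 and -1.63 in S100A9. The groups did not overlap in either gene. NGFR, the low-affinity neurotrophin receptor, had 0.613 and 1.63 FPKM at 72 h, against 4.31 and 4.76 FPKM in Cont (-1.42, adjusted p = 0.00966), lost without Cont replicate 2 (largest adjusted p 0.0526). The short RNA genes MT-TP, a mitochondrial tRNA, and RNU5D-1, a spliceosomal U5 gene, were also among the 15 largest falls (-1.93 and -1.41), and both calls were lost without either Cont library, with adjusted p up to 0.142 and 0.0919. The difference in MT-TP was -1.15 without 72 h replicate 1. RNU5D-1 was tested only through its level in Cont.

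**Figure D2:**
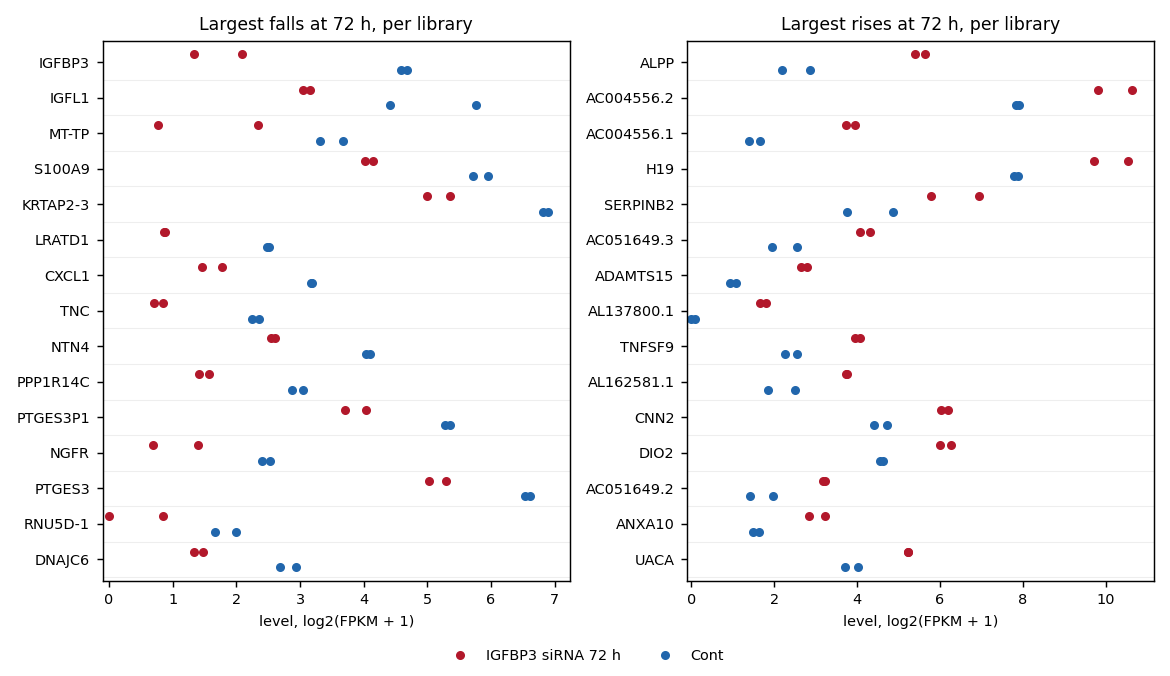
Level of the 15 genes with the largest falls (left) and the 15 with the largest rises (right), as log2(FPKM + 1) per library; red points are the 2 libraries of IGFBP3 siRNA 72 h and blue points the 2 of Cont. In every gene shown both 72 h libraries lie on one side of both Cont libraries, as the choice of these genes required.

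ALPP had the largest rise, and 2 models on a scaffold and H19 followed. ALPP, the placental alkaline phosphatase, had 49 and 41.4 FPKM at 72 h, against 6.29 and 3.53 FPKM in Cont (3.0, SE 0.33, adjusted p = 0.00462), or 9.21-fold more at 72 h on the FPKM scale. The model used for it exceeds the reference model 1.74-fold in length, which bears on the level. Through the 1 added to FPKM it also bears on the difference, and how far was not tested. H19, an imprinted long non-coding RNA of fetal tissues, had 840.6 and 1480.0 FPKM at 72 h, against 233.9 and 219.4 FPKM in Cont (2.29, SE 0.24, adjusted p = 0.00398). Both groups were well apart, but the 72 h libraries differed from each other by more than the Cont libraries did. The short entries AC051649.3 and AC051649.2 lie within H19, and since the handling of strand is not given in the sources used here, their rises (1.94 and 1.51, the second lost without Cont replicate 2, 72 h replicate 1 or 72 h replicate 2 (largest adjusted p 0.0783)) cannot be told apart from that of H19. AC004556.2 and AC004556.1, which lie on a scaffold outside the chromosomes, rose by 2.35 and 2.32, and the first had nearly the levels of H19 in every library on a model whose length exceeds the reference model 22.3-fold. PLAC8, named for its high level in placenta, had 1.96 and 1.52 FPKM at 72 h, against 0.501 and 0.478 FPKM in Cont (0.87, SE 0.11, adjusted p = 0.0065), and was tested only through its level at 72 h.

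Several enzymes and surface proteins rose with them. ADAMTS15, a secreted protease of the matrix proteoglycans, had 5.28 and 5.94 FPKM at 72 h, against 0.905 and 1.10 FPKM in Cont (1.72, SE 0.11, adjusted p = 0.00159). DIO2, the deiodinase that makes active thyroid hormone, had 63.2 and 76 FPKM at 72 h, against 22.7 and 23.7 FPKM in Cont (1.54, SE 0.12, adjusted p = 0.00194). TNFSF9, the ligand of the T cell receptor 4-1BB, had 14.4 and 15.9 FPKM at 72 h, against 4.90 and 3.79 FPKM in Cont (1.60, SE 0.14, adjusted p = 0.00259). No library at 72 h overlapped with Cont in these genes. CNN2, the actin-binding protein calponin 2, had 71.8 and 64.1 FPKM at 72 h, against 25.5 and 20.1 FPKM in Cont (1.54, SE 0.12, adjusted p = 0.00194). UACA, a protein of apoptosis control, had 36.8 and 36.4 FPKM at 72 h, against 12 and 15.2 FPKM in Cont (1.37, SE 0.11, adjusted p = 0.00201). ANXA10, an annexin of gastric and urothelial epithelium, had 6.17 and 8.35 FPKM at 72 h, against 1.83 and 2.08 FPKM in Cont (1.47, SE 0.13, adjusted p = 0.0025). CNN2, UACA and TNFSF9 stood about as high at 48 h, with means of 75.5, 32.6 and 13.8 FPKM. SERPINB2, the plasminogen activator inhibitor 2, had 122.2 and 53.9 FPKM at 72 h, against 28.4 and 12.6 FPKM in Cont (2.04, adjusted p = 0.03), a call lost without Cont replicate 2 or 72 h replicate 1 (largest adjusted p 0.108). The long non-coding RNA AL137800.1 had 2.49 and 2.17 FPKM at 72 h, against 0.059 and 0 FPKM in Cont, so that nothing but a trace was counted in Cont. It was tested only through its level at 72 h.

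Genes of ERK feedback and ERK targets that were called at 72 h were all lower, and 13 of the 19 tested were not called. Of 19 tested genes of ERK feedback and ERK targets, 6 fell (31.6%, against 9.95% of all genes) and none rose, with a median of -0.51, against -0.05 for all genes; 16 of the 19 differences were negative. Without 1 library between 2 and 5 of them were called lower. SPHK1, the sphingosine kinase induced by growth factors, had 4 and 2.77 FPKM at 72 h, against 9.49 and 10.1 FPKM in Cont (-1.31, SE 0.16, adjusted p = 0.00582). ETV4, an ETS factor of the PEA3 group and a classic ERK target, had 8.91 and 7.26 FPKM at 72 h, against 17 and 17 FPKM in Cont (-0.99, SE 0.10, adjusted p = 0.00315). Both 72 h libraries were well below Cont in both genes. SPRED1, a restraint on RAS, had 1.17 and 0.964 FPKM at 72 h, against 3.12 and 2.32 FPKM in Cont (-0.84, adjusted p = 0.0093), lost without 72 h replicate 2 (largest adjusted p 0.0525). SPRED3, of the same family, had 0.628 and 0.522 FPKM at 72 h, against 1.24 and 1.24 FPKM in Cont (-0.51, adjusted p = 0.0188), lost without any 1 of the 4 libraries (largest adjusted p 0.0949). SPRED3 was tested only through its level in Cont, so it had to differ. Both SPRED genes held the AGGGATT letters in the 3′ UTR, and SPHK1 and ETV4 did not. CCND1, the cyclin D1 gene and an ERK target itself, had 139.8 and 104.6 FPKM at 72 h, against 208.8 and 197.6 FPKM in Cont (-0.74, adjusted p = 0.026), lost without Cont replicate 1, Cont replicate 2 or 72 h replicate 2 (largest adjusted p 0.106).

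Among the receptors and ligands upstream, the EGFR family list had 1 gene higher and 1 lower of 10. These are 10% each, against 3.76% higher and 9.95% lower of all genes. HBEGF, a ligand of EGFR, had 16.5 and 13.7 FPKM at 72 h, against 27 and 23.1 FPKM in Cont (-0.70, adjusted p = 0.0116), lost without Cont replicate 1 or 72 h replicate 2 (largest adjusted p 0.0553). EGFR itself had 35.8 and 34.3 FPKM at 72 h, against 23.4 and 20.7 FPKM in Cont (0.65, adjusted p = 0.0115), lost without Cont replicate 2, 72 h replicate 1 or 72 h replicate 2 (largest adjusted p 0.0615). The ligand and its receptor thus moved in opposite directions. In the list of FGF, MET, KIT and neurotrophin signaling, 2 of 18 genes rose (11.1%) and 4 fell (22.2%). With quantile normalization 3 rose and 3 fell. KITLG, the ligand of KIT, had 8.99 and 10.3 FPKM at 72 h, against 3.91 and 3.98 FPKM in Cont (1.10, SE 0.08, adjusted p = 0.00194). FGFR2, the receptor of the keratinocyte growth factor in its epithelial form, had 8.93 and 9.45 FPKM at 72 h, against 14.8 and 13.7 FPKM in Cont (-0.58, SE 0.07, adjusted p = 0.00612). FGFBP1, which frees fibroblast growth factors from the matrix, had 38.7 and 36.1 FPKM at 72 h, against 18.5 and 11.5 FPKM in Cont (1.30, adjusted p = 0.0142), lost without 72 h replicate 1 or 72 h replicate 2 (largest adjusted p 0.0677).

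In the insulin-like growth factor system the 3 other binding proteins tested were not called. IGFBP6, which prefers IGF2, had 10.9 and 18 FPKM at 72 h, against 8.74 and 7.51 FPKM in Cont (0.72, adjusted p = 0.0713), and IGFBP4 and IGFBP7 differed by 0.06 and 0.10. In the list of ligands, receptors and adaptors, 1 of 10 genes was higher (10%, against 3.76% of all genes) and 2 were lower (20%, against 9.95%). The higher gene, GRB10, and 1 of the 2 lower genes, STC1, were each tested only through the group where they were high. Both had to differ, so these shares say little about the list. IRS2, the adaptor that passes the receptor's signal to PI3K, had 3.06 and 2.54 FPKM at 72 h, against 5.34 and 4.79 FPKM in Cont (-0.68, SE 0.09, adjusted p = 0.00829). GRB10, an adaptor that inhibits the insulin receptor, had 1.44 and 1.30 FPKM at 72 h, against 0.630 and 0.545 FPKM in Cont (0.58, adjusted p = 0.0188), lost without any 1 of the 4 libraries (largest adjusted p 0.095). Of 24 PI3K, AKT, FOXO and mTOR components, 2 rose (8.3%) and 6 fell (25%), or 3 and 3 with quantile normalization, and 0 to 3 were called lower without 1 library. PIK3CB, a catalytic subunit of PI3K whose 3′ UTR holds the seed letters, had 5.47 and 6.01 FPKM at 72 h, against 8.49 and 9.12 FPKM in Cont (-0.54, adjusted p = 0.00834), lost without 72 h replicate 1 (largest adjusted p 0.0506).

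Protein phosphatase 2A is a trimer of a scaffold, a catalytic and a regulatory subunit that removes phosphate from ERK, AKT and many other proteins. Of its 14 tested subunit genes 6 fell (42.9%, against 9.95% of all genes) and none rose, with a median of -0.23, and 2 to 4 were called lower without 1 library. PPP2R1B, one of the scaffold subunits, had 3.02 and 3.48 FPKM at 72 h, against 7.29 and 7.44 FPKM in Cont (-0.98, SE 0.08, adjusted p = 0.00239). PPP2R2A, a regulatory subunit, had 7.76 and 8.17 FPKM at 72 h, against 12.2 and 12.1 FPKM in Cont (-0.56, SE 0.07, adjusted p = 0.00582). PPP2R5A, a regulatory subunit of another family, had 6.71 and 6.78 FPKM at 72 h, against 9.63 and 9.82 FPKM in Cont (-0.47, adjusted p = 0.00852), lost without 72 h replicate 1 (largest adjusted p 0.0506). The groups did not overlap in any of the 3 genes, and none of the 14 subunit genes held AGGGATT in its 3′ UTR. With quantile normalization 4 of the 14 were lower.

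**Figure D3:**
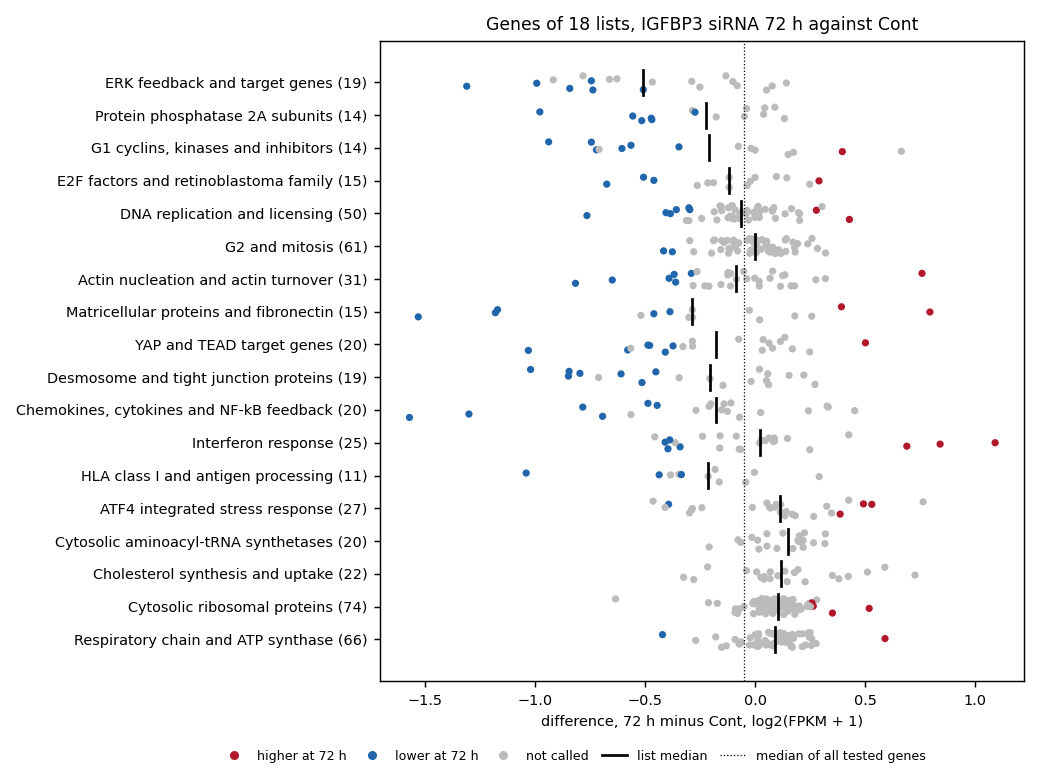
Differences between IGFBP3 siRNA 72 h and Cont (horizontal axis, log2(FPKM + 1)) for the tested genes of 18 lists, with the number tested in brackets. Red points are genes higher at 72 h, blue points genes lower at 72 h and gray points genes not called, black bars are list medians and the dotted line is the median of all tested genes (-0.05); the list median of the ERK genes is the lowest of the 18 at -0.51.

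Of 31 genes of actin nucleation and turnover 6 fell (19.4%, against 9.95% of all genes) and 1 rose (3.2%, against 3.76%), with a median of -0.09, and 2 were called lower without each library in turn. ACTR3, the Arp3 subunit of the Arp2/3 complex that starts branched actin filaments, had 15.2 and 15.7 FPKM at 72 h, against 28.2 and 27.7 FPKM in Cont (-0.82, SE 0.06, adjusted p = 0.00201). ARPC2, a further subunit, had 32.6 and 35.3 FPKM at 72 h, against 53.6 and 53.9 FPKM in Cont (-0.65, SE 0.07, adjusted p = 0.00412). Both 72 h libraries were well below Cont in these subunits. CFL1, or cofilin, which severs filaments, had 210.0 and 204.9 FPKM at 72 h, against 128.1 and 116.7 FPKM in Cont (0.76, SE 0.08, adjusted p = 0.00398). ARPC5L had 12.5 and 11.6 FPKM at 72 h, against 15.8 and 16.4 FPKM in Cont (-0.39, adjusted p = 0.0173), lost without any 1 of the 4 libraries (largest adjusted p 0.0883). ARPC2 and ARPC5L held the seed letters, and ACTR3 did not.

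At the sites where actin meets the matrix, TNS3, or tensin 3, had 14.1 and 14.4 FPKM at 72 h, against 7.19 and 7.28 FPKM in Cont (0.89, SE 0.07, adjusted p = 0.00194), and the 2 libraries of each group were nearly equal. It was 1 of 2 focal adhesion genes that rose, of 21 tested, with 1 lower. The shares were 9.5% and 4.8%, against 3.76% and 9.95% of all genes. Of the epithelial integrins 1 rose (11.1%) and 2 fell (22.2%), against the same shares. Among 9 epithelial integrins, ITGA6, the laminin receptor subunit of hemidesmosomes, had 21.1 and 21.8 FPKM at 72 h, against 29.6 and 29.1 FPKM in Cont (-0.43, adjusted p = 0.0116), lost without Cont replicate 1, 72 h replicate 1 or 72 h replicate 2 (largest adjusted p 0.0659). ITGAV, a subunit of receptors for vitronectin and latent TGF-beta, had 9.56 and 8.66 FPKM at 72 h, against 14.7 and 12.6 FPKM in Cont (-0.53, adjusted p = 0.019), lost without Cont replicate 1, 72 h replicate 1 or 72 h replicate 2 (largest adjusted p 0.0925). ITGB4, the partner of ITGA6, had 101.7 and 116.9 FPKM at 72 h, against 80.8 and 73.3 FPKM in Cont (0.50, adjusted p = 0.0386), lost without any 1 of the 4 libraries (largest adjusted p 0.168). The 2 partners of the hemidesmosome integrin thus moved apart.

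Matricellular proteins, which sit in the matrix and tune adhesion, were called in both directions. Of their list 33.3% fell and 13.3% rose, against 9.95% and 3.76% of all genes. Of 15 tested genes of this list 5 fell and 2 rose, and 3 to 4 were called lower without 1 library. TNC and SPP1, 2 of the 5, were tested only through their level in Cont. Besides TNC, THBS1, which encodes thrombospondin 1, had 161.9 and 182.1 FPKM at 72 h, against 397.7 and 382.1 FPKM in Cont (-1.18, SE 0.10, adjusted p = 0.00201). SPP1, or osteopontin, had 0.292 and 0.160 FPKM at 72 h, against 1.85 and 1.66 FPKM in Cont (-1.17, SE 0.11, adjusted p = 0.00298). The groups were far apart in both, THBS1 at a high and SPP1 at a low level. THBS2 had 13.4 and 13.1 FPKM at 72 h, against 18.6 and 16.7 FPKM in Cont (-0.39, adjusted p = 0.0234), lost without Cont replicate 1, 72 h replicate 1 or 72 h replicate 2 (largest adjusted p 0.107). None of the 5 that fell held the seed letters. Of 21 genes of collagens and their processing 3 rose and 3 fell (14.3% each, against 3.76% and 9.95% of all genes). With quantile normalization 6 rose and 3 fell, and without any 1 of the 4 libraries none were called lower. COL5A1, a chain of fibril-forming collagen V, had 10.2 and 9.83 FPKM at 72 h, against 5.18 and 5.66 FPKM in Cont (0.78, SE 0.08, adjusted p = 0.004). COL5A2, its partner chain, had 1.40 and 1.21 FPKM at 72 h, against 2.40 and 2.24 FPKM in Cont (-0.53, adjusted p = 0.0181), lost without any 1 of the 4 libraries (largest adjusted p 0.091). LTBP2, a microfibril protein, had 3.36 and 3.26 FPKM at 72 h, against 6.85 and 8.28 FPKM in Cont (-0.99, SE 0.09, adjusted p = 0.00298).

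Among the proteases and their inhibitors, 3 of 11 genes of the plasminogen system and the serpins fell and 1 rose. These are 27.3% lower and 9.1% higher, against 9.95% and 3.76% of all genes. In the list of metalloproteinases and their inhibitors 1 gene fell and 1 rose (7.7% each, against the same shares). SERPINA1, the inhibitor of neutrophil elastase, had 10.5 and 11.2 FPKM at 72 h, against 21.1 and 20.9 FPKM in Cont (-0.89, SE 0.07, adjusted p = 0.00194). SERPINB5, or maspin, whose 3′ UTR holds the seed letters, had 17.4 and 16.8 FPKM at 72 h, against 29 and 25 FPKM in Cont (-0.63, SE 0.09, adjusted p = 0.00803). PLAUR, the urokinase receptor, had 2.97 and 1.72 FPKM at 72 h, against 6.13 and 4.93 FPKM in Cont (-0.98, adjusted p = 0.0236), lost without Cont replicate 1, Cont replicate 2 or 72 h replicate 2 (largest adjusted p 0.108). Of 13 metalloproteinases and their inhibitors, TIMP3 had 57.5 and 79.6 FPKM at 72 h, against 33 and 35.6 FPKM in Cont (0.96, adjusted p = 0.0129), lost without Cont replicate 1 or Cont replicate 2 (largest adjusted p 0.0664), and TIMP4 had 3.35 and 2.68 FPKM at 72 h, against 4.73 and 4.48 FPKM in Cont (-0.49, adjusted p = 0.0273), lost without Cont replicate 1, Cont replicate 2 or 72 h replicate 2 (largest adjusted p 0.115).

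Several junction proteins and surface proteases fell, 36.8% of their list against 9.95% of all genes. Of 19 genes of desmosomes and tight junctions, with their proteases, 7 fell and none rose (6 and 1 with quantile normalization), with a median of -0.21, and 3 to 6 were called lower without 1 library. ST14, or matriptase, a membrane protease of epithelial barriers, had 7.11 and 6.63 FPKM at 72 h, against 13.3 and 13 FPKM in Cont (-0.84, SE 0.07, adjusted p = 0.00201). CLDN4, a claudin of tight junctions, had 7.04 and 6 FPKM at 72 h, against 16.2 and 12.5 FPKM in Cont (-1.02, SE 0.13, adjusted p = 0.00612). The 72 h libraries did not overlap with Cont in either. DSC3, a desmosomal cadherin of basal cells, had 0.703 and 1.06 FPKM at 72 h, against 2.48 and 2.27 FPKM in Cont (-0.85, adjusted p = 0.00822), lost without Cont replicate 1 (largest adjusted p 0.05). SPINT2, an inhibitor of matriptase, had 27.1 and 27.8 FPKM at 72 h, against 37.2 and 38.6 FPKM in Cont (-0.45, adjusted p = 0.00887), lost without 72 h replicate 1 (largest adjusted p 0.0537). Of the 7 that fell, 4 held the seed letters (OCLN, DSC3, DSC2 and SPINT2), and ST14 and CLDN4 did not.

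Of 12 tested keratins 2 fell (16.7%, against 9.95% of all genes) and 1 rose (8.3%, against 3.76%), with a median of -0.10. KRT17, an injury and tumor keratin, had 87.8 and 92 FPKM at 72 h, against 164.3 and 135.2 FPKM in Cont (-0.72, SE 0.10, adjusted p = 0.00827). KRT18, a simple epithelial keratin, had 678.1 and 787.7 FPKM at 72 h, against 513.8 and 451.7 FPKM in Cont (0.60, adjusted p = 0.023), lost without Cont replicate 2, 72 h replicate 1 or 72 h replicate 2 (largest adjusted p 0.114). The basal keratin KRT5 had 257.2 and 269.4 FPKM at 72 h, against 297.8 and 246.8 FPKM in Cont (-0.04, adjusted p = 0.828), and its groups overlapped. Of 12 genes of squamous differentiation 2 rose and 2 fell (16.7% each, against 3.76% and 9.95% of all genes). IVL, or involucrin, the first layer of the cornified envelope, had 1.06 and 1.14 FPKM at 72 h, against 2.73 and 2.88 FPKM in Cont (-0.86, adjusted p = 0.015), lost without any 1 of the 4 libraries (largest adjusted p 0.0726). CALML3, a calmodulin-like protein of differentiating epithelium, had 3 and 5.55 FPKM at 72 h, against 12 and 12.4 FPKM in Cont (-1.37, adjusted p = 0.0105), lost without Cont replicate 1 or Cont replicate 2 (largest adjusted p 0.0534). SCEL, or sciellin, had 10.7 and 12.4 FPKM at 72 h, against 6.88 and 6.75 FPKM in Cont (0.68, adjusted p = 0.0238), lost without any 1 of the 4 libraries (largest adjusted p 0.111). The members of this list therefore differed in direction.

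Of 12 tested factors of the squamous lineage 3 fell (25%, against 9.95% of all genes) and 1 rose (8.3%, against 3.76%), with 1 lower under quantile normalization and 1 to 3 lower without 1 library. FOXE1, a forkhead factor of thyroid and oral epithelium, had 9.35 and 8.48 FPKM at 72 h, against 5.21 and 5.24 FPKM in Cont (0.67, SE 0.08, adjusted p = 0.00488). TFAP2C, an AP-2 factor of squamous epithelium, had 4.97 and 5.02 FPKM at 72 h, against 8.92 and 7.55 FPKM in Cont (-0.62, SE 0.09, adjusted p = 0.0084). TFAP2A, a further AP-2 factor, had 10.1 and 9.85 FPKM at 72 h, against 17.1 and 13.1 FPKM in Cont (-0.54, adjusted p = 0.0367), lost without Cont replicate 1, 72 h replicate 1 or 72 h replicate 2 (largest adjusted p 0.135). KLF4, a zinc finger factor of epithelial barriers, had 0.728 and 0.974 FPKM at 72 h, against 1.69 and 1.38 FPKM in Cont (-0.45, adjusted p = 0.0401), lost without any 1 of the 4 libraries (largest adjusted p 0.167). The groups did not overlap in these factors.

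Among targets of BMP, Notch and Wnt signaling, ID1, induced by BMP, had 107.7 and 110.3 FPKM at 72 h, against 60.5 and 69 FPKM in Cont (0.74, SE 0.10, adjusted p = 0.00667), while ID2 of the same family had 5.17 and 3.29 FPKM at 72 h, against 10.9 and 7.70 FPKM in Cont (-0.98, adjusted p = 0.0271), lost without Cont replicate 1 or 72 h replicate 2 (largest adjusted p 0.112). LFNG, the sugar transferase that modifies Notch receptors, had 3.43 and 4.11 FPKM at 72 h, against 10.5 and 7.35 FPKM in Cont (-1.04, adjusted p = 0.0139), lost without Cont replicate 1 or 72 h replicate 1 (largest adjusted p 0.0715), and was the 1 called gene of 13 in the Notch list. The Notch list thus had 7.7% lower and none higher, against 9.95% and 3.76% of all genes. In the Wnt list 4 of 18 genes fell (22.2%, against 9.95% of all genes) and 1 rose (5.6%, against 3.76%). FZD7, a Wnt receptor, had 3.24 and 2.73 FPKM at 72 h, against 5.51 and 5.65 FPKM in Cont (-0.73, SE 0.10, adjusted p = 0.00793). DKK1, a secreted Wnt inhibitor, had 112.9 and 106.8 FPKM at 72 h, against 71.7 and 81.5 FPKM in Cont (0.52, adjusted p = 0.0194), lost without Cont replicate 1, 72 h replicate 1 or 72 h replicate 2 (largest adjusted p 0.095). Of 15 tested markers and factors of the epithelial to mesenchymal transition 2 rose (13.3%) and 1 fell (6.7%), or 2 and 2 with quantile normalization, with a median of -0.22 and 9 of 15 differences below 0. VIM, the mesenchymal filament protein vimentin, had 54.8 and 47.8 FPKM at 72 h, against 16.8 and 30.7 FPKM in Cont (1.13, adjusted p = 0.0341), lost without Cont replicate 1, 72 h replicate 1 or 72 h replicate 2 (largest adjusted p 0.133), and its difference was 0.72 without Cont replicate 1. SNAI2, a repressor of epithelial genes, had 22.6 and 23.1 FPKM at 72 h, against 15.8 and 15.9 FPKM in Cont (0.50, adjusted p = 0.0261), lost without any 1 of the 4 libraries (largest adjusted p 0.108). CDH3, or P-cadherin, an adhesion protein of basal epithelium, had 36.6 and 39.2 FPKM at 72 h, against 53.2 and 47.2 FPKM in Cont (-0.39, adjusted p = 0.0294), lost without Cont replicate 1, 72 h replicate 1 or 72 h replicate 2 (largest adjusted p 0.132).

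Components of the Hippo pathway, in which LATS kinases keep the coactivator YAP out of the nucleus, included a kinase and the coactivator itself among the genes that fell. In the list of YAP, TEAD and their targets 30% fell and 5% rose, against 9.95% and 3.76% of all genes. Of 20 genes of YAP, TEAD and their targets 6 fell and 1 rose, with a median of -0.18, and 1 to 6 were called lower without 1 library. LATS2 had 1.91 and 2.54 FPKM at 72 h, against 5.87 and 5.28 FPKM in Cont (-1.03, SE 0.12, adjusted p = 0.00526). YAP1 had 15.8 and 15.5 FPKM at 72 h, against 21.2 and 21 FPKM in Cont (-0.41, adjusted p = 0.0108), lost without Cont replicate 1, 72 h replicate 1 or 72 h replicate 2 (largest adjusted p 0.0611). TEAD1, the DNA-binding partner of YAP, had 6.22 and 5.51 FPKM at 72 h, against 10.1 and 8.48 FPKM in Cont (-0.58, adjusted p = 0.0143), lost without Cont replicate 1 or 72 h replicate 2 (largest adjusted p 0.0739). The 1 gene that rose, AJUBA, a LIM protein that binds LATS kinases, had 58.2 and 65.3 FPKM at 72 h, against 42.3 and 44.3 FPKM in Cont (0.50, adjusted p = 0.015), lost without Cont replicate 1, Cont replicate 2 or 72 h replicate 2 (largest adjusted p 0.0751). Among the 6 that fell only LATS2 held the seed letters.

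Several regulators of the G1 phase fell, and genes of later phases were mostly not called. Of 14 tested G1 cyclins, kinases and inhibitors 6 fell (42.9%, against 9.95% of all genes) and 1 rose, with a median of -0.21, and 3 to 4 were called lower without 1 library. CCND3, a D-type cyclin, had 10.1 and 9.57 FPKM at 72 h, against 16.1 and 17.6 FPKM in Cont (-0.72, SE 0.09, adjusted p = 0.00548). CCNE2, an E-type cyclin that starts S phase, had 4.38 and 4.77 FPKM at 72 h, against 7.12 and 7.36 FPKM in Cont (-0.56, SE 0.08, adjusted p = 0.00727). CDKN2D, the p19 inhibitor of the cyclin D kinases, had 2.71 and 2.28 FPKM at 72 h, against 5.45 and 5.91 FPKM in Cont (-0.94, SE 0.09, adjusted p = 0.00298). Cyclins and an inhibitor thus fell together, and the groups overlapped in none of the 3. Of 15 E2F and retinoblastoma family genes 3 fell (20%, against 9.95% of all genes) and 1 rose (6.7%, against 3.76%). E2F1, the factor that switches on S phase genes, had 7.88 and 7.63 FPKM at 72 h, against 12.6 and 13.3 FPKM in Cont (-0.67, SE 0.07, adjusted p = 0.00339). RBL1, or p107, whose 3′ UTR holds the seed letters, had 7.38 and 7.60 FPKM at 72 h, against 10.8 and 11.4 FPKM in Cont (-0.51, SE 0.07, adjusted p = 0.00793). One member of the G1 list that is often measured, the p53 target CDKN1A, named after its values were seen, had 11.7 and 9.76 FPKM at 72 h, against 25.5 and 12.8 FPKM in Cont (-0.71, adjusted p = 0.154).

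Replication genes were called near the background share. Of 50 genes of DNA replication and licensing 6 fell (12%, against 9.95% of all genes) and 2 rose, with a median of -0.07, and 1 stayed lower without each library. POLD3, a subunit of DNA polymerase delta, had 7.17 and 8.12 FPKM at 72 h, against 12.9 and 14.4 FPKM in Cont (-0.76, SE 0.09, adjusted p = 0.00548). Of 25 genes of nucleotide synthesis 3 fell (12%, near the 9.95% of all genes) and 1 rose (4%, against 3.76%). RRM2, the small subunit of ribonucleotide reductase, had 43.2 and 40.9 FPKM at 72 h, against 54.8 and 57.1 FPKM in Cont (-0.41, adjusted p = 0.0199), lost without any 1 of the 4 libraries (largest adjusted p 0.0994). Of 61 genes of G2 and mitosis 2 fell (3.3%) and none rose, with a median of -0.00165. AURKA, or Aurora A, a spindle pole kinase, had 60.9 and 50.7 FPKM at 72 h, against 72.5 and 76.5 FPKM in Cont (-0.42, adjusted p = 0.0419), lost without Cont replicate 1, Cont replicate 2 or 72 h replicate 2 (largest adjusted p 0.166). Of 46 genes of DNA damage signaling and repair 2 fell (4.3%, against 9.95% of all genes). The histone gene H2BC5 had 2.53 and 2.49 FPKM at 72 h, against 0.922 and 0.902 FPKM in Cont (0.88, SE 0.09, adjusted p = 0.00355). It was the 1 called gene of 6 replication-dependent histone genes (16.7% higher, against 3.76% of all genes). H2BC5 was tested only through its level at 72 h, so it had to differ. In the list of p53 targets and apoptosis regulators 15.2% fell and 3% rose, against 9.95% and 3.76% of all genes. Of 33 p53 targets and apoptosis regulators 5 fell and 1 rose, and 0 to 2 were called lower without 1 library. PMAIP1, or NOXA, a death-promoting BH3 protein, had 6.69 and 5.58 FPKM at 72 h, against 9.54 and 11.7 FPKM in Cont (-0.70, adjusted p = 0.0139), lost without Cont replicate 2 or 72 h replicate 2 (largest adjusted p 0.0677).

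Of 27 targets of ATF4, the factor of the integrated stress response, 3 rose (11.1%) and 1 fell (3.7%), with a median of 0.12. Of all genes 3.76% rose and 9.95% fell. MTHFD2, a mitochondrial folate enzyme, had 54.5 and 52.1 FPKM at 72 h, against 36.4 and 36.8 FPKM in Cont (0.53, adjusted p = 0.0175), lost without any 1 of the 4 libraries (largest adjusted p 0.0874). SLC7A5, the large amino acid transporter, had 261.5 and 276.5 FPKM at 72 h, against 209.5 and 174.1 FPKM in Cont (0.49, adjusted p = 0.0367), lost without Cont replicate 2, 72 h replicate 1 or 72 h replicate 2 (largest adjusted p 0.152). None of 20 cytosolic aminoacyl-tRNA synthetases and none of 22 genes of cholesterol synthesis and uptake were called, with medians of 0.15 and 0.12. Of 33 genes of the ER chaperones and the unfolded protein response 4 fell (12.1%, near the 9.95% of all genes). SEC24D, a coat protein of ER export, had 2.44 and 2.76 FPKM at 72 h, against 4.86 and 4.43 FPKM in Cont (-0.65, SE 0.08, adjusted p = 0.00672). Of 26 antioxidant genes 3 fell (11.5%, near the 9.95% of all genes) and 2 rose (7.7%, against 3.76%). MT2A, a metallothionein that binds zinc and copper, had 1077 and 1088 FPKM at 72 h, against 1543 and 1884 FPKM in Cont (-0.66, adjusted p = 0.0285), lost without Cont replicate 2, 72 h replicate 1 or 72 h replicate 2 (largest adjusted p 0.116), and AKR1C3, an aldo-keto reductase, had 0.805 and 0.758 FPKM at 72 h, against 1.88 and 1.98 FPKM in Cont (-0.72, SE 0.09, adjusted p = 0.00607).

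Of 30 genes of hypoxia and glycolysis 2 fell (6.7%, against 9.95% of all genes) and 1 rose (3.3%, against 3.76%). ENO2, the neuronal enolase, had 1.77 and 1.97 FPKM at 72 h, against 6.79 and 5.95 FPKM in Cont (-1.36, SE 0.16, adjusted p = 0.00548), whereas GAPDH had 2594 and 2581 FPKM at 72 h, against 1899 and 1777 FPKM in Cont (0.49, adjusted p = 0.0236), lost without any 1 of the 4 libraries (largest adjusted p 0.113) and with quantile normalization. Of 17 genes of fatty acid synthesis 2 fell (11.8%, near the 9.95% of all genes). ACSL4 had 7.19 and 7.15 FPKM at 72 h, against 14.8 and 13.8 FPKM in Cont (-0.90, SE 0.08, adjusted p = 0.00213). Of 74 cytosolic ribosomal proteins 4 rose and none fell, with a median of 0.10 and 62 of 74 differences above 0, and 0 to 1 were called higher without 1 library. Of 66 genes of the respiratory chain 1 rose and 1 fell (1.5% each), with a median of 0.09. The ribosomal protein genes that rose were 5.4% of their list, against 3.76% of all genes.

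Interferon response genes were called in both directions at 72 h. Of 25 tested genes 3 rose (12%, against 3.76% of all genes) and 4 fell (16%, against 9.95%), with a median of 0.02. The 3 that rose were all of the IFIT family of proteins that bind foreign RNA. With quantile normalization 5 rose and none fell. IFIT1 had 6.83 and 7.62 FPKM at 72 h, against 3.03 and 2.70 FPKM in Cont (1.09, SE 0.11, adjusted p = 0.00315). IFIT2 had 5.70 and 6.56 FPKM at 72 h, against 3.11 and 2.85 FPKM in Cont (0.84, adjusted p = 0.00961), lost without Cont replicate 2 or 72 h replicate 2 (largest adjusted p 0.0538). IFIT3, named after its values were seen, had 11.1 and 11.7 FPKM at 72 h, against 7.65 and 5.88 FPKM in Cont (0.69, adjusted p = 0.0382), lost without any 1 of the 4 libraries (adjusted p up to 0.147). The 72 h libraries were above Cont in all 3. The 3 IFIT genes overlap the gene model of LIPA, a lysosomal lipase, which had 39.5 and 44.2 FPKM at 72 h, against 26.4 and 21 FPKM in Cont (0.80, adjusted p = 0.01, lost without 72 h replicate 2 with adjusted p = 0.0552), and without strand their reads cannot be told apart from its own. LIPA was likewise named after its values were seen. HERC6, an ISG15 ligase in mouse, had 2.03 and 2.21 FPKM at 72 h, against 3.22 and 3 FPKM in Cont (-0.40, adjusted p = 0.0319), lost without any 1 of the 4 libraries (largest adjusted p 0.141). USP18, which takes ISG15 off proteins and damps the interferon receptor, had 2.35 and 2.88 FPKM at 72 h, against 3.66 and 3.91 FPKM in Cont (-0.41, adjusted p = 0.0352), lost without Cont replicate 1, Cont replicate 2 or 72 h replicate 1 (largest adjusted p 0.145).

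Interferon acts through a promoter element of paired GAAA letters, so promoters of genes called in either direction are shown. RefSeq windows of GRCh38.p14, from 250 bases before to 50 after the gene start, were found for 20 of the 25 genes. The letters GAAANNGAAA, on either strand and with overlaps counted, were in 13 of these 20 genes. They were in 3.75% of the 7976 tested genes with a window, and in 3.57% of all 35116 windows of that length. Among the 7 genes called in this list, IFIT1, IFIT3 and DTX3L held them, DDX58 and HERC6 had windows without them, and no window was matched for IFIT2 and USP18. IFIT1 is shown at chr10:89392478-89392557, IFIT3 at chr10:89327823-89327902 and DTX3L, which fell by 0.39, at chr3:122564297-122564376, each on the plus strand and with the motif in capitals.
IFIT1: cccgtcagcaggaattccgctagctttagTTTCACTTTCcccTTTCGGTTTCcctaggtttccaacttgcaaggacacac
IFIT3: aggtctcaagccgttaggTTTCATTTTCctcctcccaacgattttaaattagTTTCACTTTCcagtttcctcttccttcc
DTX3L: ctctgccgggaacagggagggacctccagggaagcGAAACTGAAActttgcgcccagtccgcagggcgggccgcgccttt
The stretch of IFIT1 and that of IFIT3 carry the motif in 2 places, and that of DTX3L in 1.

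Chemokine, cytokine and antigen presentation genes were lower where they were called. Of 20 tested chemokines, cytokines and NF-kB feedback genes 6 fell (30%, against 9.95% of all genes) and none rose, with a median of -0.18. With quantile normalization 4 fell, and 2 to 4 were called lower without 1 library. Besides CXCL1, CXCL16, a membrane-bound chemokine, had 3 and 3.45 FPKM at 72 h, against 6.32 and 6.20 FPKM in Cont (-0.78, SE 0.09, adjusted p = 0.00426). IL11, a cytokine of the IL-6 family, had 1.10 and 0.969 FPKM at 72 h, against 2.50 and 2.10 FPKM in Cont (-0.69, adjusted p = 0.00884), lost without 72 h replicate 2 (largest adjusted p 0.0524). LIF, of the same family, had 4.73 and 2.95 FPKM at 72 h, against 14.6 and 7.79 FPKM in Cont (-1.30, adjusted p = 0.0284), lost without Cont replicate 1, 72 h replicate 1 or 72 h replicate 2 (largest adjusted p 0.121). All 72 h libraries lay below Cont in these genes. Of 11 HLA class I and antigen processing genes 3 fell (27.3%) and none rose, with a median of -0.21, and 1 was called lower with quantile normalization and without each library in turn. HLA-B had 2.66 and 2.59 FPKM at 72 h, against 6.19 and 6.79 FPKM in Cont (-1.04, SE 0.08, adjusted p = 0.00194), and HLA-C had 1.93 and 1.70 FPKM at 72 h, against 2.85 and 2.77 FPKM in Cont (-0.44, adjusted p = 0.0236), lost without any 1 of the 4 libraries (largest adjusted p 0.118) and with quantile normalization. The class I genes are similar in sequence and share overlapping models, so reads may have been split between them.

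The late phase was set against 48 h. Of the same 10997 genes 255 were higher at 72 h (2.32%) and 206 were lower (1.87%) than at 48 h, with 1365 and 1423 at an unadjusted p below 0.05. The counts dropped when a library was left out. Without 48 h replicate 1 limma called none in either direction (1142 higher and 1004 lower at an unadjusted p below 0.05), and without 48 h replicate 2, 72 h replicate 1 and 72 h replicate 2 it called 18, 105 and 8 higher and 19, 65 and 7 lower. Without Cont replicate 1 and Cont replicate 2, which enter through the shared spread, it called 158 and 174 higher and 105 and 118 lower. Every call between the times named here was therefore lost without 48 h replicate 1. The comparison shares the 72 h libraries with the one against Cont, so the levels are given side by side.

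Some genes that rose at 72 h stood closer to Cont at 48 h. H19 averaged 1161 FPKM at 72 h and 281.4 FPKM at 48 h, against 226.7 FPKM in Cont (1.99 between the times, adjusted p = 0.0157). ALPP averaged 45.2 FPKM at 72 h and 10.9 FPKM at 48 h, against 4.91 FPKM in Cont (2.04, adjusted p = 0.0322). TNS3 averaged 14.3 FPKM at 72 h and 6.95 FPKM at 48 h, against 7.23 FPKM in Cont (0.94, adjusted p = 0.00582). In TNS3 the 48 h mean lay just under that of Cont. COL5A1 averaged 10 FPKM at 72 h and 5.60 FPKM at 48 h, against 5.42 FPKM in Cont (0.74, adjusted p = 0.0142). IFIT1 averaged 7.23 FPKM at 72 h and 2.91 FPKM at 48 h, against 2.87 FPKM in Cont (1.08, adjusted p = 0.012). ID1 averaged 109 FPKM at 72 h and 69.7 FPKM at 48 h, against 64.8 FPKM in Cont (0.64, adjusted p = 0.0274). In these genes the mean at 72 h stood above both others.

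Among the falls, ETV4 averaged 8.09 FPKM at 72 h and 23.6 FPKM at 48 h, against 17 FPKM in Cont (-1.44, adjusted p = 0.00582). It was above Cont at 48 h and below Cont at 72 h. SPHK1 averaged 3.39 FPKM at 72 h and 8.10 FPKM at 48 h, against 9.81 FPKM in Cont (-1.06, adjusted p = 0.0274). HBEGF averaged 15.1 FPKM at 72 h and 26 FPKM at 48 h, against 25.1 FPKM in Cont (-0.75, adjusted p = 0.0274). In the ERK list 4 of 19 genes were lower at 72 h than at 48 h and none higher, against 1.87% and 2.32% of all genes. The list medians were -0.38 between the times and 0.13 for 48 h minus Cont.

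Other genes stood far from Cont at 48 h and nearer to it at 72 h. KRT5 averaged 263.3 FPKM at 72 h and 121.7 FPKM at 48 h, against 272.3 FPKM in Cont (1.11, adjusted p = 0.0118). KRT17 averaged 89.9 FPKM at 72 h and 37.4 FPKM at 48 h, against 149.8 FPKM in Cont (1.24, adjusted p = 0.00839), so it was only part of the way back. Of the 12 keratins 5 were higher at 72 h than at 48 h, against 2.32% of all genes. The list median was 0.59 between the times and -0.72 for 48 h minus Cont. The ATF4 targets showed the opposite order, with 11 of 27 lower at 72 h than at 48 h, against 1.87% of all genes. Their medians were -0.61 between the times and 0.67 for 48 h minus Cont. ATF4 itself, named after its values were seen, averaged 81.4 FPKM at 72 h and 182.1 FPKM at 48 h, against 72.7 FPKM in Cont (-1.14, adjusted p = 0.0155). Of the aminoacyl-tRNA synthetases 5 of 20 were lower at 72 h than at 48 h, against 1.87% of all genes. At 48 h their median stood 0.44 above Cont.

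**Figure D4:**
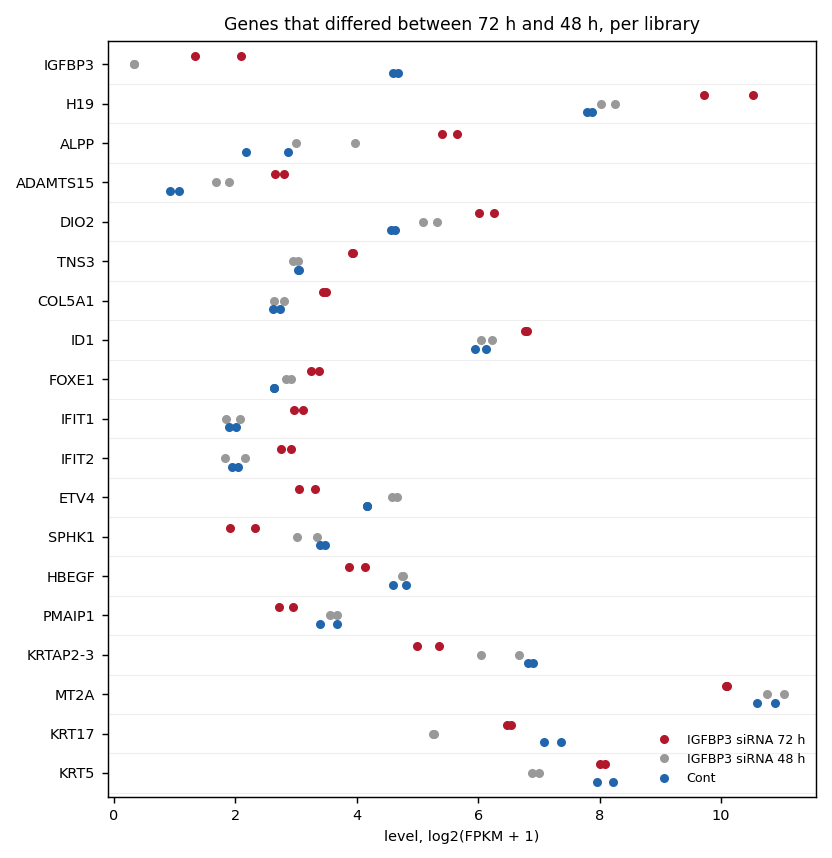
Level per library, as log2(FPKM + 1), of 19 genes that differed between 72 h and 48 h; red points are IGFBP3 siRNA 72 h, gray points IGFBP3 siRNA 48 h and blue points Cont, 2 libraries each. H19, ALPP, TNS3 and IFIT1 are highest at 72 h, ETV4, SPHK1 and HBEGF are lowest at 72 h, and KRT5 is low at 48 h only.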

How the data were processed

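RNA from 6 libraries of SAS-Fucci cells (2 each at 72 h and 48 h of IGFBP3 siRNA and 2 of Cont) was sequenced by the authors, who aligned reads with HISAT2 2.0.1. The submitters' processing notes also name HTSeq 0.6.1, DESeq2 and GRCh38. The annotation release and the handling of strand are not given in the sources used here. The deposited values are FPKM per gene model; dividing by their smallest steps gave whole reads (98.71% to 99.33% of low values within 0.1 read), used only for depth and for voom. Named genes that reached 1 FPKM in 2 or more of the 4 compared libraries were tested on log2(FPKM + 1) with limma 3.58.1 (R 4.3.3, trended variance, all 6 libraries, Benjamini-Hochberg adjustment, calls below 0.05). The members and gene lists were chosen with earlier results of these data known. Named genes were IGFBP3, the 15 largest falls and rises among called genes with non-overlapping groups, per list up to 4 called genes by p, the 5 most abundant called genes in each direction, and cell markers; some were left out for brevity, and some results are not reported here. Seed letters were counted in the longest annotated 3′ UTR (GENCODE, GRCh38), and promoters were taken from RefSeq (GRCh38.p14). Alternatives changed the pseudocount, filter, scaling, model, replicate block and libraries.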

Additional observations from a re-analysis of the deposited data

Results flagged for a closer look

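Of the 186 genes named by the rule, 39 differed between 72 h and 48 h in limma's test of that difference (adjusted p below 0.05), and all 39 calls were lost without 48 h replicate 1. The differences are given as 72 h minus 48 h on the log2(FPKM + 1) scale. Those in placental and imprinted genes and in the models that overlap or resemble H19 were AC051649.2 (2.82), AC004556.2 (2.03), AC004556.1 (2.00), H19 (1.99), AC051649.3 (1.97) and ALPP (2.04). Among keratins, interferon genes and IGFBP3 itself, the values were KRT17 (1.24), KRT5 (1.11), KRT14 (1.00), IGFBP3 (1.38), IFIT1 (1.08) and IFIT2 (0.84). Enzymes, receptors and matrix proteins higher at 72 h were ADAMTS15 (0.94), TNS3 (0.94), DIO2 (0.93), LFNG (0.92), SCD5 (0.81), COL5A1 (0.74), FGFR2 (0.74) and COL18A1 (0.72). The smaller differences above 0 were ID1 (0.64), S100A10 (0.62), DNAJC3 (0.44), FOXE1 (0.43) and ACTR3 (0.33).

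Single genes of the ERK, EGFR and immediate early lists were lower at 72 h than at 48 h, namely ETV4 (-1.44), SPHK1 (-1.06), HBEGF (-0.75) and KLF4 (-0.80). KRTAP2-3 was also lower (-1.18). The others lower at 72 h than at 48 h were MT2A (-0.81), PMAIP1 (-0.78), COL7A1 (-0.58), AL137800.1 (-0.56), MTHFD2 (-0.56), TIMP4 (-0.49), MT1X (-0.48), CEBPG (-0.47) and LTBP2 (-0.46). The EGFR list had 1 of 10 genes lower and none higher between the times, with a median of -0.03. The immediate early list had 1 of 13 genes lower and 1 higher, with a median of 0.24. Of all genes 1.87% were lower and 2.32% higher. With 2 libraries per group no library could be tested for standing apart from the others of its group.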

How the results depend on the processing

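IGFBP3 stayed lower at 72 h than in Cont under each alternative. Against Cont, the counts of genes higher and lower at 72 h were 118 and 338 with no filter on low values, 620 and 725 with quantile normalization, 298 and 703 with an FPKM of at least 5, and 76 and 259 at an adjusted p below 0.01. Without 1 library of any group they ranged from 104 to 292 higher and from 327 to 812 lower. Between the times the counts were 5 and 0 with no filter (limma, 1365 and 1423 at an unadjusted p below 0.05 in the filtered fit), 86 and 48 with unnamed gene models, 171 and 117 on the compared groups alone, 599 and 528 with voom on recovered reads, 11 and 4 at an adjusted p below 0.01, and 0 to 174 and 0 to 118 without 1 library. Deviations of same-numbered libraries had correlations of 0.005 between Cont and 48 h, 0.17 between Cont and 72 h and -0.125 between 48 h and 72 h. The labels do not tell whether same-numbered libraries were handled as pairs, and these values do not settle it. With a replicate block the counts were 323 and 877 against Cont and 180 and 134 between the times. A crossed pairing of 72 h and 48 h, added after seeing the data, gave 243 and 203. The fit without the filter held more genes, and the fits without 1 library held fewer libraries. Why the counts changed was not tested.

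Of the 175 called genes named besides IGFBP3, 106 lost the call with no filter, 17 with quantile normalization, 22 with the replicate block and 1 with voom, and none reversed. Uncalled epithelial markers changed sign. TP63 was 0.0232 with quantile normalization and -0.1935 to 0.1286 without 1 library. Without 1 library KRT5 ranged from -0.1773 to 0.0927, KRT14 from -0.3048 to 0.0041, KRT6A from -0.5708 to 0.1585, CDH1 from -0.0352 to 0.5216 and DSG3 from -0.1243 to 0.2468. With 2 libraries per group, small differences were not detectable.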

Other observations

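Genes outside the lists and the rule for named genes were also called at 72 h without each of the 4 libraries in turn. They were chosen after their values were seen and are given as values. GATA6, a transcription factor of endoderm, had 4.79 and 5.26 FPKM at 72 h, against 1.90 and 1.96 FPKM in Cont (1.04, adjusted p = 0.00194). ALDH1A3, an enzyme that makes retinoic acid, had 16.1 and 13 FPKM at 72 h, against 7.19 and 5.18 FPKM in Cont (1.12, adjusted p = 0.00906). CD70, a ligand of the TNF family, had 24.2 and 26.1 FPKM at 72 h, against 12 and 14.2 FPKM in Cont (0.89, adjusted p = 0.0039). The 72 h libraries were above both Cont libraries in all 3. IL6R, the receptor of interleukin 6, had 12.8 and 10.7 FPKM at 72 h, against 6.07 and 4.24 FPKM in Cont (1.06, adjusted p = 0.00826). PAPSS2, which makes the sulfate donor for proteoglycans, had 5.53 and 5.54 FPKM at 72 h, against 1.74 and 2.06 FPKM in Cont (1.17, adjusted p = 0.00194).

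Among genes that were lower, SINHCAF, a subunit of the SIN3 corepressor, had 69.8 and 71.5 FPKM at 72 h, against 172.7 and 157.4 FPKM in Cont (-1.21, adjusted p = 0.00159). Its pseudogene SINHCAFP2 had 6.57 and 5.03 FPKM at 72 h, against 16.2 and 15 FPKM in Cont, and reads of the pair may have been shared. TMEM30A, a partner of lipid flippases, had 5.80 and 6.45 FPKM at 72 h, against 15.4 and 16.7 FPKM in Cont (-1.26, adjusted p = 0.00159). TDG, a DNA glycosylase of base excision repair, had 8.10 and 8.63 FPKM at 72 h, against 17.7 and 17.3 FPKM in Cont (-0.99, adjusted p = 0.00194). The groups did not overlap in these genes. LAMP2, a lysosomal membrane protein, had 8.62 and 9.02 FPKM at 72 h, against 15.1 and 14.9 FPKM in Cont (-0.71, adjusted p = 0.00264). MAPK13, the p38 delta kinase, had 6.55 and 6.68 FPKM at 72 h, against 11.6 and 11.5 FPKM in Cont (-0.72, adjusted p = 0.00264).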
